A study of Rattus norvegicus with 9 samples.

Results

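The CC chemokines Ccl2, Ccl7, Ccl12, Ccl3, Ccl4 and Ccl5 and the receptors Ccr1 and Ccr2 were followed in rat back skin under imiquimod, with and without epidural lidocaine. The 8 genes were chosen by name, as inflammatory members of the CC chemokine family and their receptors, and not by a threshold on a value. Earlier results of these data were known when they were chosen. All 8 are among the 6025 genes listed for imiquimod against untreated skin. Ccl5, Ccl7 and Ccl12 are also among the 399 genes listed for lidocaine with imiquimod against imiquimod, and the 2 tables together hold 6197 genes.

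RNA was sequenced from the back skin of wild-type Sprague Dawley rats of 250 g body weight, in 3 groups of 3 libraries collected on day 7. The untreated group received nothing. In the imiquimod group the back was treated over 6 days with imiquimod, an agonist of Toll-like receptor 7 that gives rodents a psoriasis-like dermatitis. Rats of the lidocaine group were treated with imiquimod in that way and also had epidural 1% lidocaine, a sodium channel blocker used as a local anaesthetic, for 4 days beginning on day 3. No group with a vehicle cream or an epidural sham injection is among the labels, so the cream and the injection cannot be told apart from the drugs. The labels give no age and do not state that each library is a separate animal, so p-values measure the spread between these libraries, which may be technical.

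Chemokines are small secreted proteins that bind to glycosaminoglycans on cells and matrix and guide leukocytes along the gradient. Ccl2, Ccl7 and Ccl12 belong to the monocyte chemoattractant proteins and act mainly through Ccr2, the receptor that brings monocytes out of the bone marrow and into tissue. Ccl3, Ccl4 and Ccl5 are made by macrophages, T cells and NK cells and guide monocytes and lymphocytes; Ccr1 is a receptor for Ccl3 and Ccl5. In inflamed skin, macrophages, dendritic cells, keratinocytes, fibroblasts and lymphocytes are known sources of these ligands.

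Levels are normalized counts, that is, reads divided by a size factor of the library. One read was worth 0.817 to 1.24 normalized counts. Reads on listed genes came to 15947423 to 22929894 per library in the imiquimod table and 417714 to 803921 in the lidocaine table. Differences are those of the group means of log2(normalized count + 1), which understates the change of genes near 0 reads. They were tested with limma, a linear model that draws the spread of each gene toward a value common to all genes of the table. A gene was called at a Benjamini-Hochberg adjusted p under 0.05 over the table. Levels are not compared between genes, since no gene lengths are given. Both tables hold only genes selected on the same libraries: every listed difference is at least 1.0 on the log2 scale in either direction, so adjusted p-values are too small, and a gene that is not listed is not shown to be unchanged.

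All 6 ligands and both receptors were higher with imiquimod than in untreated skin. For each of them the lowest imiquimod library lay above the highest untreated library, and limma called each of them higher. Of all rows listed for imiquimod 87.8% were called, 47.0% as higher and 40.8% as lower, and 45.9% had imiquimod libraries that all lay above the untreated ones. The count of 8 of 8 therefore says little by itself. The differences of the 8 genes ran from 3.98 to 10.63 on the log2 scale with a median of 5.76, beside a median of 1.15 over all 6025 rows. As the genes were chosen with earlier results of these data known, this contrast is not a test. The median difference was 6.05 over the 6 ligands and 4.204 over the 2 receptors. In whole skin, more cells of a type and more RNA per cell cannot be told apart.

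**Figure D1:**
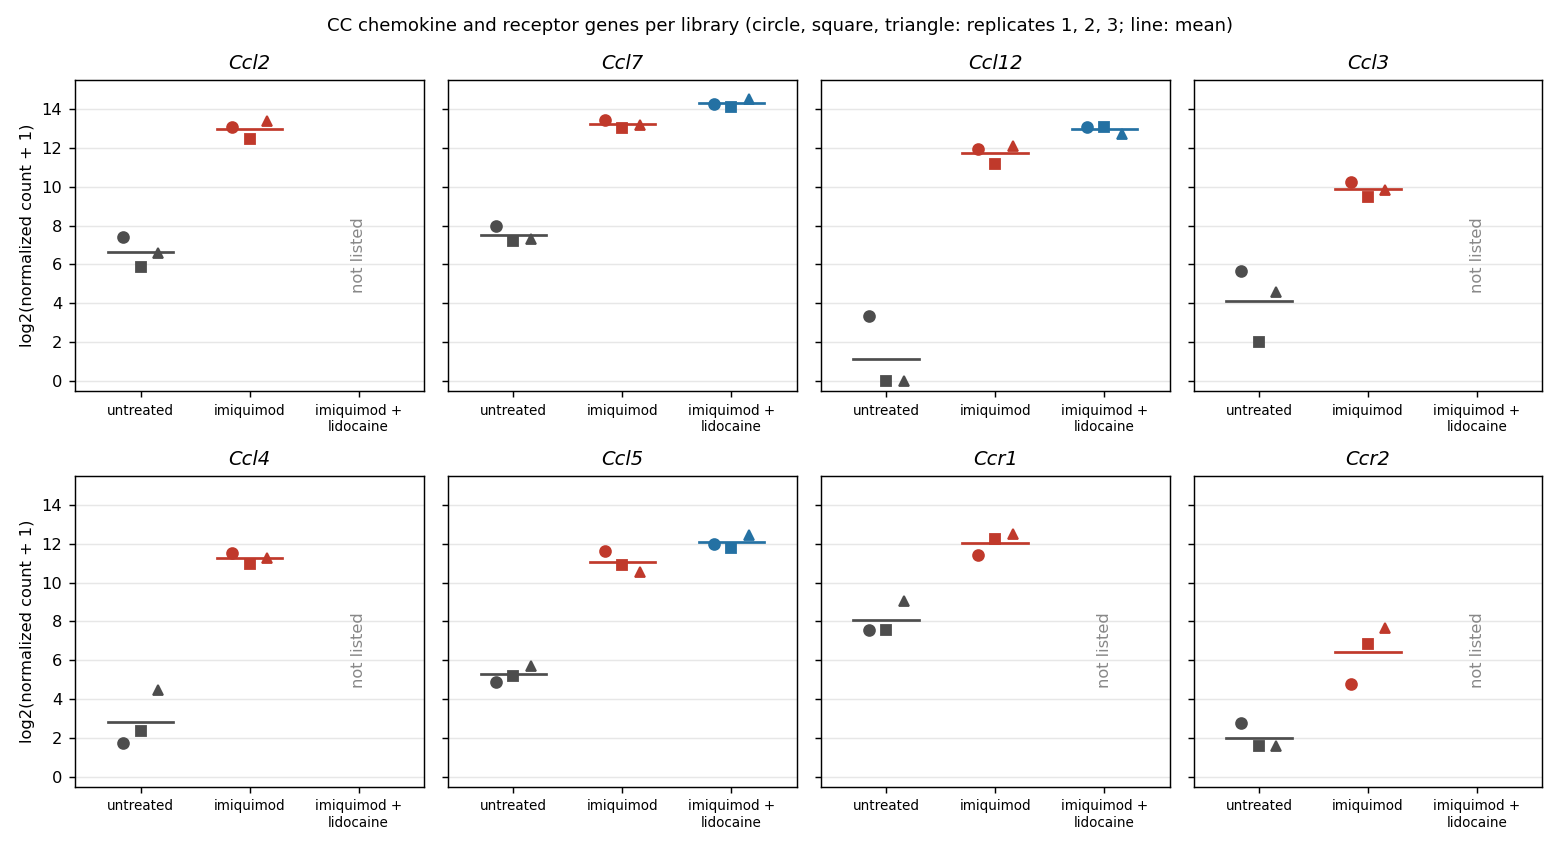
Level of each of the 8 genes per library as log2(normalized count + 1) on the vertical axis, by group on the horizontal axis, with circles, squares and triangles for replicates 1, 2 and 3 and lines for group means. Every imiquimod library lies above every untreated library, and for Ccl7, Ccl12 and Ccl5 every lidocaine library lies above every imiquimod library.

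Ccl2 (ENSRNOG00000007159), the main monocyte attractant of the family, had 170.5, 57.8 and 95.3 normalized counts in the untreated libraries, in the order of replicates 1 to 3 used throughout. The imiquimod libraries had 8489, 5585 and 10766. The untreated libraries differed among themselves by 1.54 on the log2 scale and the imiquimod libraries by 0.95, and the groups stood far apart. The mean level went from 107.9 ± 57.4 (SD, n = 3) to 8280.2 ± 2597 (SD, n = 3), a ratio of means of 76.8. Its log2 difference was 6.33 ± 0.48 (SE), with a 95% interval of 5.16 to 7.51 and a limma adjusted p of 0.00021. That difference ranked 178 from the highest of the 6025 rows.

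Ccl7 (ENSRNOG00000000239), a monocyte attractant that binds Ccr1 and Ccr2, had 249, 148 and 158 normalized counts in the untreated libraries. In the imiquimod libraries it had 10914, 8401 and 9148 normalized counts. The imiquimod libraries lay close together, within 0.38 on the log2 scale, the narrowest range of the 8 genes in that group. The log2 difference of Ccl7 was 5.71 ± 0.31 (SE), with a 95% interval of 4.94 to 6.47 and a limma adjusted p of 7.68e-05. On the linear scale the ratio of means was 51.3.

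Ccl12 (ENSRNOG00000029768), known in the mouse as monocyte chemoattractant protein 5 and a ligand of Ccr2 there, was close to undetected in untreated skin. Untreated replicate 1 had 8 reads and replicates 2 and 3 had 0 reads, which at this depth allows up to 3 reads in each. The imiquimod libraries had 4577, 2283 and 5399 reads, or 3986, 2310.4 and 4413 normalized counts. The gene thus went from at most 8 reads to at least 2283 in every imiquimod library. Its fitted log2 difference was 10.63 ± 0.96 (SE), with a limma adjusted p of 0.00034, and ranked 9 of the 6025 rows. Near 0 reads that value depends on the added count: it was 8.12 with 10 added in place of 1, and 11.75 without untreated replicate 1, the library that holds the 8 reads.

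Ccl7 and Ccl12 lie in the same stretch of chromosome 10 and are the monocyte chemoattractant protein genes listed in both tables. The 250 bases before their annotated starts are therefore shown (RefSeq, GRCr8, plus strand, chr10:67513845-67514094 for Ccl7 and chr10:67567626-67567875 for Ccl12). Capitals mark the matches that a search of both strands found for 5 motifs: a kappaB motif GGGNNNTTCC, an AP-1 motif TGANTCA, an interferon-stimulated response element GAAANNGAAA, a gamma-activated site TTCNNNGAA and a TATA box TATAAA.
Ccl7: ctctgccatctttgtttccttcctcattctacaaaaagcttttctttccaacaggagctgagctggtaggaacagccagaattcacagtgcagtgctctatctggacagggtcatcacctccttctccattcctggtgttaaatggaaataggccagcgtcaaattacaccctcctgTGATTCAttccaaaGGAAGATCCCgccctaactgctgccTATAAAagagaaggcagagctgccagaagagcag
Ccl12: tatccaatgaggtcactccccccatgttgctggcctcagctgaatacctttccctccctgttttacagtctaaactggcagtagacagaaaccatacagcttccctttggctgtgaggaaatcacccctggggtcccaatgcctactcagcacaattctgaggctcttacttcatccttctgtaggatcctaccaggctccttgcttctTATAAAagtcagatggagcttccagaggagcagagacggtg
In Ccl7 the AP-1 match lies 73 to 67 bases, the kappaB match (on the minus strand) 59 to 50 bases and the TATA box 34 to 29 bases before the start. In Ccl12 a TATA box lies 41 to 36 bases before the start, and neither the kappaB nor the AP-1 letters are in the window. Of 33469 promoters of that length, 4.53% hold the kappaB letters, 6.34% the AP-1 letters and 12.9% the TATA box. The interferon-stimulated element is in 3.41% and the gamma-activated site in 7.67% of them, and in neither of these windows. The windows of Ccr1 and Ccr2 hold none of the 5 motifs. Promoters of Ccl2, Ccl3, Ccl4 and Ccl5 were not analysed here. A match is a run of letters and no measurement of binding.

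Ccl3 (ENSRNOG00000011205), macrophage inflammatory protein 1 alpha, had 49.5, 3.10 and 23.3 normalized counts in the untreated libraries, from 43, 3 and 23 reads. In the imiquimod libraries it had 1229, 711 and 924 normalized counts. The untreated libraries differed among themselves by 3.62 on the log2 scale, the widest range of the 8 genes in that group, and the imiquimod libraries by 0.79. The mean went from 25.3 ± 23.3 (SD, n = 3) to 954.7 ± 260.1 (SD, n = 3) normalized counts, a ratio of 37.7. On the log2 scale the difference was 5.77 ± 0.91 (SE), with a 95% interval of 3.55 to 7.98 and a limma adjusted p of 0.0026. It was 4.73 without untreated replicate 2, 6.55 without untreated replicate 1 and 4.99 with 10 added in place of 1.

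Ccl4 (ENSRNOG00000011406), macrophage inflammatory protein 1 beta, had 2, 4 and 21 reads in the untreated libraries, or 2.30, 4.13 and 21.3 normalized counts. In the imiquimod libraries it had 2972, 1974 and 2472 normalized counts. Untreated replicate 3 was the high library of its group, still far under the imiquimod libraries. For Ccl4 the log2 difference was 8.40 ± 0.72 (SE), with a 95% interval of 6.65 to 10.15 and a limma adjusted p of 0.00029, and ranked 59 of the 6025 rows. Without untreated replicate 3 it was 9.21, and with 10 added in place of 1 it was 7.12.

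Ccl5 (ENSRNOG00000010906), also called RANTES, attracts T cells, monocytes and eosinophils and is stored in the granules of cytotoxic T cells. It had 28.8, 36.2 and 51.7 normalized counts in the untreated libraries and 3207, 1941 and 1488 in the imiquimod libraries. Imiquimod replicate 1 was its highest library and replicate 3 its lowest. The groups differed by 5.76 ± 0.40 (SE) on the log2 scale, with a 95% interval of 4.79 to 6.73 and a limma adjusted p of 0.00016. The ratio of means was 56.9.

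Ccr1 (ENSRNOG00000006715), a receptor of monocytes, macrophages and neutrophils for Ccl3, Ccl5 and Ccl7, had 189, 190.1 and 528 normalized counts in the untreated libraries. In the imiquimod libraries it had 2723, 4769 and 5857 normalized counts. Untreated replicate 3 was high for its group and imiquimod replicate 1 low for its group, and the groups did not overlap. Ccr1 differed by 3.98 ± 0.53 (SE) on the log2 scale, with a 95% interval of 2.70 to 5.27 and a limma adjusted p of 0.0014. The ratio of means was 14.7, and the difference ranked 631 of the 6025 rows. It was smaller than that of Ccr2 with all libraries and 1 added to the counts, but not without untreated replicate 3 (4.48 for Ccr1 and 4.23 for Ccr2) or with 10 added (3.94 and 2.89).

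Ccr2 (ENSRNOG00000059979), the receptor for Ccl2, Ccl7 and Ccl12, had 5, 2 and 2 reads in the untreated libraries and 30, 112 and 243 reads in the imiquimod libraries. As normalized counts these were 5.76, 2.07 and 2.03 against 26.1, 113 and 199. The imiquimod libraries differed among themselves by 2.88 on the log2 scale, the widest range of the 8 genes in that group, with replicate 1 lowest. Its log2 difference was 4.42 ± 0.79 (SE), with a 95% interval of 2.504 to 6.342 and a limma adjusted p of 0.0038. It was 5.25 without imiquimod replicate 1, 3.81 without imiquimod replicate 3 and 2.89 with 10 added in place of 1. The sources used here do not give how reads shared by paralogs of the family were counted.

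Within the imiquimod group, the ligands and the receptors did not order the libraries alike. Replicate 2 was the lowest library for Ccl2, Ccl7, Ccl12, Ccl3 and Ccl4, by 0.57 on the log2 scale from the group mean for Ccl12 and by 0.17 for Ccl7. For Ccl5 the lowest was replicate 3. For Ccr1 and Ccr2 the lowest was replicate 1, where Ccr1 fell short of its group mean by 0.64 and Ccr2 by 1.65. Some ligands kept nearly the same offset from each other in all 3 imiquimod libraries: the log2 difference of Ccl2 and Ccl12 within a library varied by 0.20, that of Ccl3 and Ccl4 by 0.20 and that of Ccl4 and Ccl7 by 0.21. In the untreated libraries, with few reads for Ccl12, Ccl3 and Ccl4, these offsets varied by 2.52, 4.26 and 3.40. These 3 pairs were picked after their values were seen, and 3 libraries carry no test of such a pattern.

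**Figure D2:**
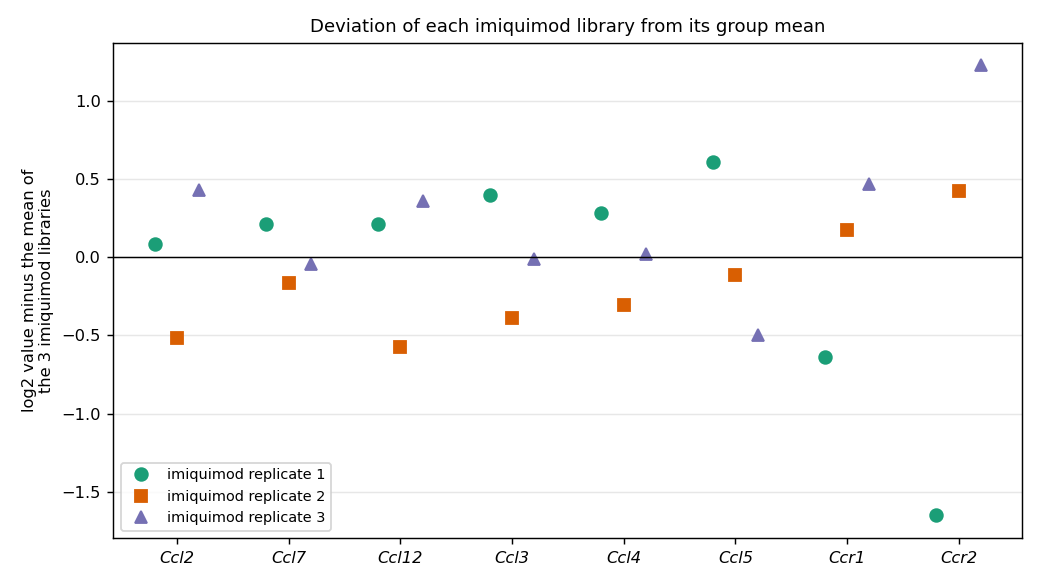
Deviation of each imiquimod library from the mean of the 3 imiquimod libraries, on the log2 scale on the vertical axis, for each of the 8 genes on the horizontal axis, with 1 symbol per replicate. Replicate 2 is lowest for 5 of the 6 ligands and replicate 1 is lowest for both receptors, down to -1.65 for Ccr2.

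Markers of several cell types also differed between the imiquimod and untreated libraries, and their part in the chemokine and receptor differences was not tested. Of all 6025 rows 47.0% were called higher and 40.8% lower, and the counts below leave out markers that were not listed. Of 15 monocyte and macrophage markers, 14 were listed and all 14 were called higher, and their summed level went from 16909 to 34243 normalized counts in untreated libraries to 312720 to 357220 with imiquimod. Of 16 T and NK cell markers, 15 were listed and all 15 called higher, with sums of 753 to 1892 untreated. Their sums with imiquimod were 38325, 35013 and 27441 in replicates 1, 2 and 3. Of 14 neutrophil markers, 10 were listed, of which 7 were called higher, 2 were not called and 1, Il1r2, was called lower (-1.54 ± 0.38 SE). The lowest log2 difference of the neutrophil markers, -1.93, was that of a marker not called. Neutrophil marker sums went from 10985 to 15065 up to 103479 to 144181, with Fpr1 at 0 in every untreated library. These sums rest mostly on S100a9, S100a8 and Fcgr3a, with means of 55321, 34812 and 32159 normalized counts with imiquimod. Of 11 dendritic cell markers, 9 were listed, with 8 called higher and 1, Cd207, lower, and sums of 922 to 1971 against 13540 to 15160. Mast cell markers went mostly the other way: of 8, 4 were listed, with Cma1, Kit and Tpsb2 called lower and Fcer1a higher, and sums of 5134 to 7154 against 2390.1 to 3372 normalized counts. Of 8 B and plasma cell markers, 6 were listed, 4 called higher and 2 lower. Of 9 endothelial markers, 5 were listed and all 5 called higher. Of 9 fibroblast markers, 4 were listed and 3 called lower, with sums of 1680944 to 3791149 normalized counts untreated and 367879 to 381528 with imiquimod. The sums rest mostly on the collagen genes Col1a1 and Col3a1. Pdgfra went the other way and was not called (1.14 ± 0.45 SE, limma adjusted p = 0.051). All 15 listed of 16 hair follicle markers were called lower. Keratinocyte markers were detected in both groups and split: of 12, 5 were listed, with Krt14 (1.23 ± 0.34 SE) and Dsg3 (1.59 ± 0.25) called higher, Krt15 (-3.46 ± 1.20) and Ivl (-3.81 ± 0.38) called lower and Krt1 not called.

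The genes whose pattern over the 6 untreated and imiquimod libraries was nearest to each member were found by the root mean square difference of log2 values centred on the gene's mean, among 4256 other listed genes whose mean was 100 normalized counts or more (4257 for Ccr2). For Ccl5 the nearest was Prf1, perforin of cytotoxic lymphocytes, at 0.19, followed by Ms4a7 at 0.24 and Sh2d2a at 0.25. For Ccl2 it was Cd84, an adhesion receptor of leukocytes, at 0.29. For Ccl7 it was Ebi3, a cytokine subunit, at 0.20, with Dhx58, a sensor of the RNA helicase family, at 0.21. For Ccr1 it was Tlr4, the receptor for lipopolysaccharide, at 0.20. Ccr2 was nearest to Strip2 at 0.21, Ccl3 to LOC100911215, described as a CD5-like glycoprotein of T cells, at 0.37, and Ccl4 to Gpr31 at 0.48 and Gzmk, a granzyme, at 0.49. Ccl12 had no such close neighbour: the nearest, granzyme Gzma, was 0.91 away and the chemokine Cxcl11 1.02. The distances rest on 6 libraries in 2 groups, so they mostly measure a like difference between the groups.

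The rest of the CC family was less uniform. Of 14 other CC chemokine genes sought, 7 were listed, 5 called higher and 2 lower, with a median log2 difference of 2.71. Among all rows 47.0% were called higher and 40.8% lower. Higher were Ccl9 (7.23 ± 0.62 SE), Ccl6 (3.24 ± 0.32), Ccl19, a guide of dendritic cells and naive T cells (3.11 ± 0.70), Ccl11, the eosinophil attractant eotaxin (2.71 ± 0.35), and Ccl20, the Ccr6 ligand (1.96 ± 0.30), with limma adjusted p from 0.00029 to 0.0080. Ccl27, the keratinocyte chemokine for skin-homing T cells, fell by 4.37 ± 0.50 (SE) on the log2 scale, from 519.7 ± 111.6 to 27.4 ± 18.2 normalized counts (SD, n = 3; limma adjusted p = 0.00085). Ccl22, a Ccr4 ligand of dendritic cells, fell by 1.92 ± 0.45 (SE), from 511.7 ± 60.1 to 149.3 ± 90.3 normalized counts (SD, n = 3; limma adjusted p = 0.0090). These 2 chemokines thus differed in the opposite direction to all 6 inflammatory ligands.

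On a list of 8 other CC receptor genes, 4 were in the table and all 4 were called higher by limma, beside 47.0% of all rows. The list does not hold Ccr1l1, a neighbour of Ccr1 that was also called higher. Ccr7, the lymph node homing receptor, differed by 6.76 ± 0.32 and Ccrl2, a chemerin-binding receptor, by 3.79 ± 0.39. Ccr8 and Ccr9 had 0 reads in every untreated library. Taken against a floor of 3 reads per library, Ccr8 was at least 9.85-fold higher and Ccr9 at least 18.0-fold higher with imiquimod. The Ccr8 bound rests on imiquimod replicate 1, with 70 reads against 17 and 20 in the others, and is 5.25-fold without it. The median log2 difference of these 4 receptors was 5.27 as fitted and 3.98 with Ccr8 and Ccr9 at these bounds. None of 4 atypical receptors, which clear chemokines without signalling, was listed.

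**Figure D3:**
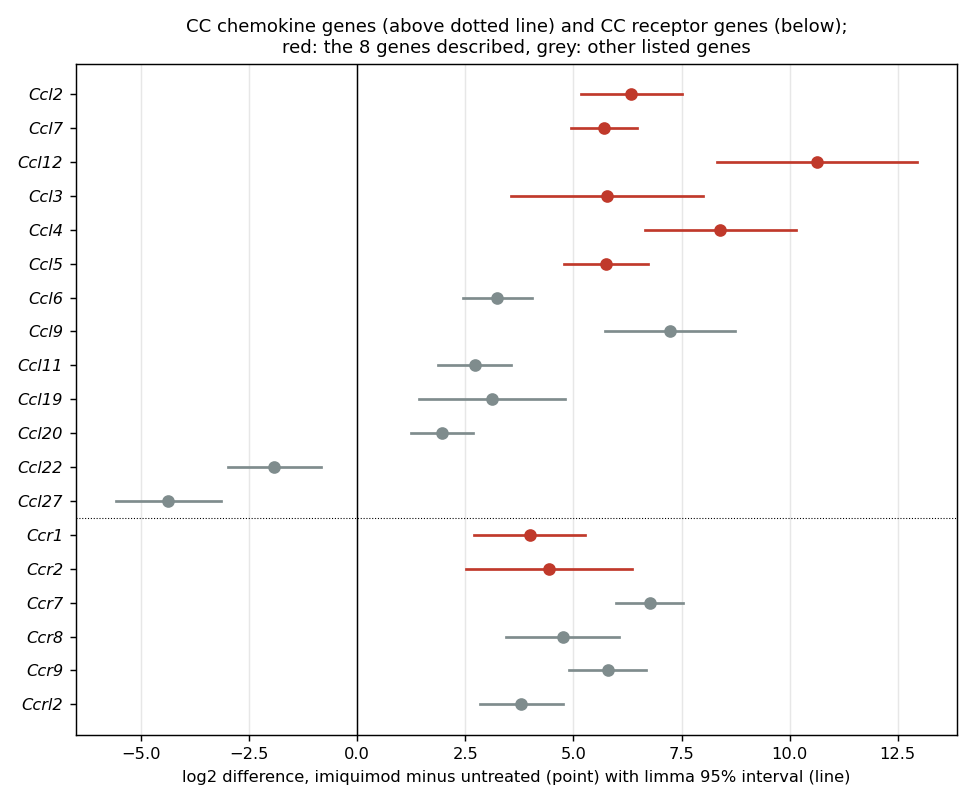
Log2 difference of imiquimod minus untreated on the horizontal axis for listed CC chemokine and CC receptor genes, with points for the estimate and lines for the limma 95% interval, red for the 8 inflammatory genes and grey for the rest. All red points lie between 3.98 and 10.63, while Ccl27 at -4.37 and Ccl22 at -1.92 lie on the other side of 0.

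In the RefSeq gene order of GRCr8 the ligand genes form a pair of runs on chromosome 10. The first run is Ccl2, Ccl7, Ccl11 and Ccl12, all called higher, followed by Ccl1, which was not listed, and Tmem132e, which was called lower (-1.44 ± 0.49 SE, limma adjusted p = 0.031). The second is Ccl5, Ccl9, Ccl6, Ccl3 and Ccl4, all called higher, flanked by Heatr9 and Wfdc18l1, neither of them listed. Anos1, the next gene after Wfdc18l1, was called higher by 3.35 ± 0.51 (SE). The receptor genes lie on chromosome 8 in the order Ccr9, Fyco1, Cxcr6, Xcr1, Ccr1, Ccr3, Ccr1l1 and Ccr2. Of these, Ccr9, Xcr1, Ccr1, Ccr1l1 and Ccr2 were called higher and Fyco1 and Ccr3 were not listed. Cxcr6, a receptor of skin T cells, was the exception, lower by -2.10 ± 0.37 (SE, limma adjusted p = 0.0036). Ccr1l1 was at 0 reads in each untreated library and at 37, 77 and 137 reads with imiquimod, at least 23.2-fold higher against the floor of 3 reads.

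**Figure D4:**
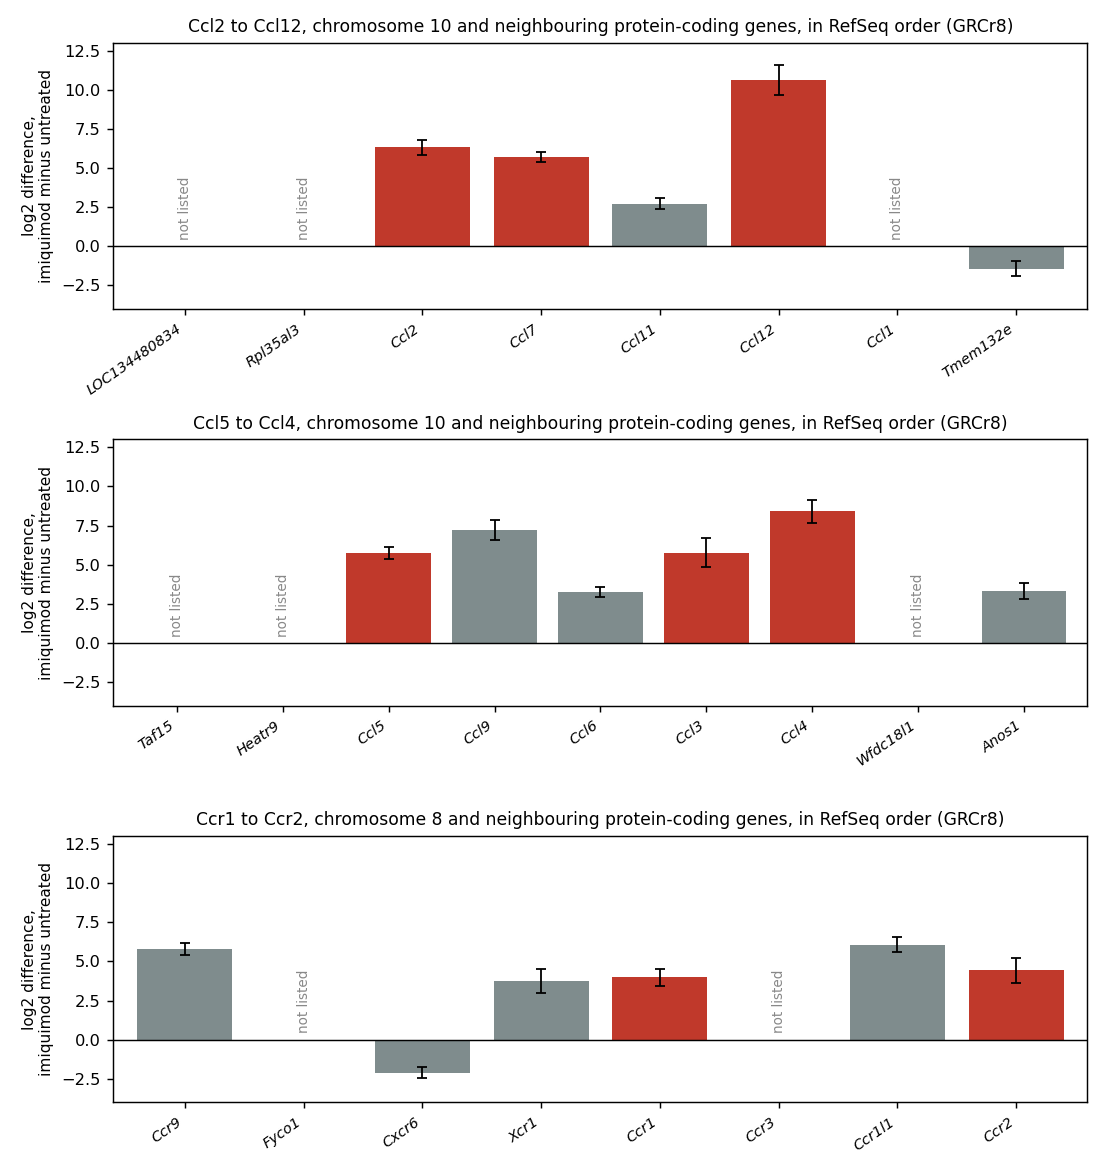
Log2 difference of imiquimod minus untreated (bars, with SE) on the vertical axis for genes in their RefSeq order on the horizontal axis, in the 2 chemokine runs of chromosome 10 and the receptor run of chromosome 8, red for the 8 inflammatory genes. Every listed chemokine and CC receptor gene shown is above 0, from 2.71 for Ccl11 to 10.63 for Ccl12, and Cxcr6 at -2.10 is below it.

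Genes up and downstream of the chemokines were listed in part. Their counts stand beside 47.0% of all 6025 rows called higher and 40.8% called lower, and genes not listed drop out of them. Of 32 genes of receptor signalling and leukocyte motility, 24 were listed and all 24 called higher, with a median log2 difference of 4.14. Named from them by their normalized counts, with no comparison of levels, were Gnai2, the inhibitory G protein subunit that couples chemokine receptors (1.06 ± 0.28 SE), Tln1, talin of integrin activation (1.53 ± 0.26), Coro1a, an actin regulator of leukocytes (4.24 ± 0.36), and Lyn, a kinase of myeloid cells (4.42 ± 0.32). Of 31 genes of nucleic acid sensing, interferon and NF-kappaB signalling, 25 were listed and all 25 called higher, with a median of 3.01. Among them Irf7, the interferon regulator downstream of Toll-like receptor 7, differed by 6.54 ± 0.27 (SE), Unc93b1, which carries that receptor to endosomes, by 3.62 ± 0.29, and Stat2, an interferon signal transducer, by 2.92 ± 0.25. Of 13 genes for the glycosaminoglycans and core proteins that hold chemokines on cells, 5 were listed, 4 called lower and 0 higher, with a median of -1.23. The listed gene that was not called, Ndst1, went the other way, with a difference of 1.45. The 4 called lower were the syndecans Sdc1 (-1.23 ± 0.32 SE) and Sdc2 (-1.21 ± 0.26) and the glypicans Gpc1 (-1.29 ± 0.31) and Gpc4 (-2.08 ± 0.27).

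Of 8 receptors of other chemokine classes, 7 were listed, 6 called higher and 1, Cxcr6, lower, with a median log2 difference of 3.46. These counts too stand beside 47.0% of all rows called higher and 40.8% called lower. Cxcr3, the receptor of activated T cells, had a mean of 28.7 ± 16.3 normalized counts untreated and 730.2 ± 149 with imiquimod (SD, n = 3; log2 difference 4.81 ± 0.55 SE, limma adjusted p = 0.00084).

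Lidocaine on top of imiquimod was compared with imiquimod alone for the 3 listed ligands. Each of them was higher in all 3 lidocaine libraries than in any imiquimod library, and none passed the adjusted threshold. Their differences ranked 115 (Ccl5), 104 (Ccl7) and 72 (Ccl12) from the highest of the 399 rows. Only differences of at least 1.0 in either direction were listed. The 3 values lie near that limit, so their like size follows in part from the selection. Ccl5 had 4016, 3533 and 5660.0 normalized counts in lidocaine replicates 1, 2 and 3, against 3207, 1941 and 1488 with imiquimod alone. Its log2 difference was 1.04 ± 0.49 (SE), with a 95% interval of -0.06 to 2.14, an unadjusted p of 0.061 and an adjusted p of 0.078 by limma. The highest imiquimod library and the lowest lidocaine library lay close together.

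Ccl7 had 19406, 17454 and 23676 normalized counts in the lidocaine libraries, against 10914, 8401 and 9148 with imiquimod alone. All 3 lidocaine libraries were well above the imiquimod group, and the ratio of means was 2.13. Ccl7 differed by 1.09 ± 0.44 (SE) on the log2 scale, with a 95% interval of 0.10 to 2.07, an unadjusted p of 0.034 and an adjusted p of 0.067 by limma. Ccl12 had 8706, 8691 and 6798 normalized counts in the lidocaine libraries, against 3986, 2310.4 and 4413. Here replicate 3 was the lowest lidocaine library, where it was the highest for Ccl5 and Ccl7. Ccl12 differed by 1.22 ± 0.47 (SE) on the log2 scale, with a 95% interval of 0.17 to 2.27, an unadjusted p of 0.027 and an adjusted p of 0.063 by limma.

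Of the 399 rows listed for lidocaine 32.1% were called, 11.0% as higher, and 27.1% had lidocaine libraries that all lay above the imiquimod ones. The 27.1% is taken over rows of both directions, so the share among rows that were higher is larger. The 0 of 3 called stand beside the 11.0% called as higher. At an unadjusted limma p under 0.05 were 2 of 3. The share of all rows at that unadjusted p is not given here, so this count says little by itself. An exact permutation test over the libraries gave a two-sided p of 0.1 for each of the 3 ligands, the smallest that 3 against 3 allows. The median log2 difference was 1.09 over the 3 ligands and -1.17 over all 399 rows, most of which were lower with lidocaine. Their adjusted p over the alternatives ran from 0.052 to 1. Ccl2, Ccl3, Ccl4, Ccr1 and Ccr2 were not listed, so their lidocaine levels are not analysed here.

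Against untreated skin, the same 3 ligands stayed far higher in the lidocaine libraries. Both tables share the scale of the imiquimod libraries, so this comparison was made over the 227 genes listed in both, of which 73.6% were called, 30.0% as higher. The log2 difference from untreated was 6.80 ± 0.32 (SE) for Ccl5, 6.79 ± 0.29 for Ccl7 and 11.85 ± 0.99 for Ccl12, each called by limma, with adjusted p of 5.28e-05, 5.28e-05 and 0.00029. For the same genes the imiquimod differences from the same untreated libraries were 5.76, 5.71 and 10.63. The Ccl12 value again rests on the 8 reads of untreated replicate 1: it was 12.97 without that library and 9.33 with 10 added in place of 1. Comparisons that share a group are not independent, so these values stand side by side and no overlap was counted.

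Around these ligands few related genes were listed for lidocaine. Of the 14 other CC chemokines only Ccl17, a Ccr4 ligand, was listed, at 67.8, 32.6 and 62.0 normalized counts with lidocaine against 26.1, 9.11 and 31.9 with imiquimod alone, a log2 difference of 1.34 ± 0.58 (SE, limma adjusted p = 0.070). Among the receptors of other classes only Cxcr3 was listed, with a mean of 1526 ± 95.4 against 730.2 ± 149 normalized counts (SD, n = 3) and a log2 difference of 1.08 ± 0.44 (SE, limma adjusted p = 0.067). Il1b, a cytokine of the sensing list (1.16 ± 0.47 SE, limma adjusted p = 0.067), and Tnfaip6, a hyaluronan-binding protein of the glycosaminoglycan list (1.007 ± 0.443 SE, limma adjusted p = 0.071), were also listed. None of these 4 genes passed the threshold. No CC receptor sought, no gene of receptor signalling and none of the markers of monocytes and macrophages, T and NK cells or dendritic cells was listed. Of the neutrophil markers 2 of 14 were listed, with sums of 114 to 146 normalized counts with imiquimod and 168 to 501 with lidocaine. Of these, Camp, the gene of an antimicrobial peptide, was called higher (1.46 ± 0.48 SE, limma adjusted p = 0.046) and Mmp8 was not called (1.10 ± 0.56 SE). The 5 listed of 12 keratinocyte markers summed to 104803 to 349430 normalized counts with imiquimod and 35332 to 122467 with lidocaine, and 1 of them, Ivl, was called lower (-2.06 ± 0.49 SE). The part of either in the ligand values was not tested.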

How the data were processed

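Sample titles gave the groups. By the labels, RNA came from back skin that was frozen, ground and extracted in TRIzol. Tools named in the submitters' processing notes are bcl2fastq, DESeq2 and STAR 2.5.3a. No source used here gives the counting tool, build, annotation, strand setting or rule of gene selection. The authors deposited 2 tables of log2(normalized count + 1) per library. Values of the imiquimod libraries are shared by both (largest difference 4.97e-09). After removal of the log, values up to 2000 reads were whole multiples of 1 step per library within 0.01, which gave reads. These cover counting error only, and depth is known only for listed genes.

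The test was limma 3.58.1 in R 4.3.3 on the log2 values as deposited, each table alone, with no block, and it was tested on simulated data. Exact permutation tests used scipy 1.17.1, and tables and figures pandas 2.3.3, numpy 2.4.6 and matplotlib 3.10.9 in python 3.11.15. The 8 genes and all lists were chosen with earlier results of these data known. Named are the 8 genes, listed CC family genes, at most 4 genes of the highest mean normalized count per other list, neighbours in gene order and the 3 nearest genes by pattern. Fpr1, Ivl and Ndst1 were named after their values were seen. RefSeq (GRCr8) held 8 of the 8 symbols, and promoters of 4 of them. No coordinates of the counted genes are given, since the build of the tables is unknown. Alternatives changed the added count, a minimum mean, the scaling, the threshold, the number of genes adjusted for, a replicate block and each library left out. For lidocaine against untreated, and for the bounds of genes at 0 reads, they were added after seeing the data. Some genes are not reported here and were left out of the lists.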

Additional observations from a re-analysis of the deposited data

How the results depend on the processing

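The direction and the side of the threshold of every one of the 8 genes held under each alternative run, 184 values over the 3 comparisons. A minimum mean of 100 normalized counts left Ccr2 out, and the other 7 genes were called with imiquimod under it. Counts of genes were less stable, and the cause was not tested. With imiquimod 3280 of the 5287 genes passed an adjusted p of 0.01. For lidocaine against imiquimod, 128 genes passed by limma in the main setting. In its place 0 passed with 10 added to the counts (286 at an unadjusted p under 0.05), 0 with a mean of at least 100 (118 at an unadjusted p under 0.05) and 13 at an adjusted p of 0.01. Adjusted over all 23154 protein-coding genes, 2 passed. Leaving out 1 library gave 22 to 147: 22 without imiquimod replicate 1, 62 without replicate 2 and 58 without replicate 3, and 49 and 34 without lidocaine replicates 2 and 3. Lidocaine against untreated gave 167 genes, and 63 adjusted over all protein-coding genes.

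With equal totals of listed counts in place of the deposited scaling, the median log2 difference of all rows went from 1.15 to 1.58 for imiquimod, from -1.17 to -0.79 for lidocaine against imiquimod and from -0.23 to 0 for lidocaine against untreated. In the second comparison the calls then split into 58 higher and 32 lower, in place of 44 and 84. No gene of the chemokine, receptor, signalling or marker lists changed its sign with imiquimod under that scaling. The labels state no pairing of same-numbered libraries. Correlations of their deviations were -0.02, -0.23 and -0.01 for imiquimod and untreated libraries. For lidocaine and imiquimod libraries they were -0.18, -0.09 and -0.06. With 3 libraries per group these values cannot exclude a pairing. With a replicate block 4756, 92 and 162 genes passed in the 3 comparisons, and 8, 0 and 3 of the genes described. Depth limits the untreated levels of Ccl12, Ccl4, Ccl3 and Ccr2, which rest on 0 to 43 reads per library.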
